A study of Mus musculus with 12 samples.

Results

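The mitosis genes are 38 genes whose products drive or carry out cell division: the G2/M cyclins, the mitotic kinases, and the proteins of the checkpoint, centromere, kinetochore, spindle and cleavage furrow. A probe set was taken as a member where the platform annotation gives that gene as its only symbol, which yielded 84 of the 45037 probe sets tested, for 37 of the 38 genes and of 18193 genes in all. Ccnb1, which encodes cyclin B1, had no probe set under this rule and is not analysed here. The list was drawn up by what the genes are known to do, with earlier results of these data known. The data are 12 Affymetrix MOE430 2.0 arrays, each of 1 embryonic mouse pancreas: 4 β-catenin KO and 2 wildtype (WT) pancreata at E14.5, and 4 KO and 2 WT pancreata at E16.5. KO embryos were Pdx1Cre/+; β-catenin flox/flox, and came, like the WT embryos, from intercrosses of Pdx1Cre/+; β-catenin flox/+ mice. The labels call the controls wild type and give no more of their genotype. Cre was driven by Pdx1, a gene of the pancreatic epithelium, and the floxed allele carries loxP sites in the second and the sixth intron. Mesenchyme, vessels and nerves of the KO pancreas therefore keep β-catenin, and the study describes Cre activity as likely mosaic within the epithelium. In one line of the deposited text the earlier day is E14.6, elsewhere it is E14.5, which is taken here. All RNA went through a double round of linear amplification before labelling.

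Entry into mitosis is driven by Cdk1 bound to cyclin B, after cyclin A has carried the cell through S phase and G2. Most of the genes below are transcribed in G2 and mitosis and shut off in G1 and in resting cells, so in tissue RNA their level follows the share of cells that are dividing. In the embryonic pancreas the dividing cells include epithelial progenitors, immature acinar cells and mesenchyme, while newly formed endocrine cells have left the cycle. In whole-organ RNA, fewer cells of a dividing type and less RNA per cell cannot be told apart.

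Many genes of this programme share short promoter elements: CCAAT boxes, bound by NF-Y, and the cell cycle genes homology region (CHR, TTTGAA), bound by the DREAM and MuvB complexes that hold these genes off in resting cells and on in G2. The promoter windows of the 5 member genes with the smallest p values at either day are printed below, since these windows are not alike in this respect. Each is 300 bases, from 250 before to 50 after the start site, from RefSeq (GRCm38.p6), read 5′ to 3′ on the gene's own strand, with each CCAAT or TTTGAA, on either strand, in capitals (ATTGG and TTCAAA are the same elements on the opposite strand).
Nusap1: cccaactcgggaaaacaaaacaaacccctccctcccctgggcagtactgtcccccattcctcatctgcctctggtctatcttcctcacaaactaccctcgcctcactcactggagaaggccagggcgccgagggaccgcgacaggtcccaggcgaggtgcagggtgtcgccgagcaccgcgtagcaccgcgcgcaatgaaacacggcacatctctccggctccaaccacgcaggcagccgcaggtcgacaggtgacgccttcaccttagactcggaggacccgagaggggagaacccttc
Ttk: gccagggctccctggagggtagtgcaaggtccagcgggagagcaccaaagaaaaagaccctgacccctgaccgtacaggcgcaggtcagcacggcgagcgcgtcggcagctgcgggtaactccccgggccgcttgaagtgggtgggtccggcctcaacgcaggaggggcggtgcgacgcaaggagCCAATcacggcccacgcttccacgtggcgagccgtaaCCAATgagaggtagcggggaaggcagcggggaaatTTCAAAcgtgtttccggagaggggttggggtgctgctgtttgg
Ccnb2: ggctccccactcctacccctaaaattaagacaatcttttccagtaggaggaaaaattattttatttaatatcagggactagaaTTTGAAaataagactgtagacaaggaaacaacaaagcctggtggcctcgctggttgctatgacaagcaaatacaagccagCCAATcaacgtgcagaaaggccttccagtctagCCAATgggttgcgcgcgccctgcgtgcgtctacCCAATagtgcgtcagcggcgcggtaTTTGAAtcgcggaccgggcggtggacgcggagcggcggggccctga
Pttg1: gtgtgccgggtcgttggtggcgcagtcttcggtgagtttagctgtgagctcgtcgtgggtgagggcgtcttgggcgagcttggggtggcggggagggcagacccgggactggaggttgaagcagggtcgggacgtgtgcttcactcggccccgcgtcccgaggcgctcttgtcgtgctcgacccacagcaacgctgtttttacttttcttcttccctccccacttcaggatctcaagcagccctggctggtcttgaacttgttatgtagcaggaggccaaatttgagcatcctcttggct
Cdk1: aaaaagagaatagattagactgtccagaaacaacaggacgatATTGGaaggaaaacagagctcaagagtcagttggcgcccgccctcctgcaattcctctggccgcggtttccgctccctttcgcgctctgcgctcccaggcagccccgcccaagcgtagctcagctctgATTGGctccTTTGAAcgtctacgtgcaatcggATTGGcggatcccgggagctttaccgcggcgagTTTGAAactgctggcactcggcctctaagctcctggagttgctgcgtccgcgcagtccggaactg
The windows are Nusap1 chr2:119618048-119618347 (plus strand), Ttk chr9:83834439-83834738 (plus strand), Ccnb2 chr9:70421505-70421804 (minus strand), Pttg1 chr11:43425932-43426231 (minus strand) and Cdk1 chr10:69352863-69353162 (minus strand). For Ttk and Pttg1 the start site of the promoter table lies inside the gene as the gene table bounds it. The Ttk window still spans the gene's outer start at 83834651. That of Pttg1 does not reach the gene's outer start at 43427463, so elements near that start were not searched. Ccnb2 and Cdk1 each held 3 CCAAT and 2 CHR letter matches, Ttk held 2 CCAAT and 1 CHR, and neither element was found in the windows of Nusap1 and Pttg1. Of the 33 members in the promoter table, 25 (75.8%) held CCAAT, against 37.9% of all 27025 promoters of this length. TTTGAA was found in 24 (72.7%), against 18.1% of all promoters, and both in 21 (63.6%), against 7.12%. The match of letters is a description and shows no binding.

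Each deposited value is a ratio of a probe set's signal to the mean of the 2 WT pancreata of the same day, so 1 is the WT mean, and how abundant a transcript was, or how it changed between the days, is lost. Log2 ratios were compared with limma, with Benjamini-Hochberg adjustment across the 45037 probe sets, and a probe set was called at an adjusted p under 0.05. For genes with more than 1 probe set, the one used in gene counts was picked by its name and not by its values. Pancreata are named as the array titles name them, by genotype, number and letter. The number was not explained in the labels.

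At E14.5 the mitosis genes lay below the WT level as a group, but no single member passed the test. The median log2 fold change of the 37 genes was -0.40, against 0.01 over all 18193 genes, and 30 genes had negative and 7 positive values. The middle of the list spanned -0.50 to -0.12 (quartiles), and its ends were -0.86 for Ect2 and 0.34 for Cenpa. None of the 84 member probe sets was called, where 0.0111% of all probe sets were, and the smallest adjusted p of a member was 0.522 (limma). At an unadjusted limma p under 0.05, 28 of the 84 member probe sets (33.3%) were lower, against 4.52% of all probe sets, and 0 were higher, against 2.34%. By gene this was 12 of 37 (32.4%), against 5.51% of all genes. The count depended on the processing: after quantile normalization it was 17 lower member probe sets (20.2%, against 4.48% of all probe sets in either direction). With 1 WT pancreas left, the list's median was -0.35 without WT_522B and -0.40 without WT_522C. In the methods' t-test, within the day and before adjustment, 2 of 84 (2.38%) were past 0.05, both lower, against 5.04% of all probe sets in either direction. All 4 KO pancreata lay below both WT pancreata on 25 member probe sets (29.8%, against 8.06% of all probe sets) and above both on 1 (1.19%, against 8.17%).

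The 4 KO pancreata at E14.5 differed widely from one another. Over the 37 genes, KO_615A had a median ratio of 0.983, KO_540C of 0.830, KO_615B of 0.695 and KO_540G of 0.601, against 0.998 in WT_522B and 1.0 in WT_522C. KO_615A therefore lay close to the WT pancreata, and KO_540G farthest from them, while KO_615B, which shares its number with KO_615A, was well below it. KO_540G was the lowest of the 4 KO on 23 of the 37 genes, as it was on 27.3% of all genes, and KO_615A the highest on 26, as it was on 20.6% of all genes. Below both WT pancreata were 32 of the 37 genes in KO_615B (41.3% of all genes), 30 in KO_540C (43.1% of all genes), 29 in KO_540G (34.0% of all genes) and 13 in KO_615A (34.3% of all genes), the count in KO_615A being near the background. The SD of the log2 ratios among the 4 KO had a median of 0.32 over the mitosis genes, against 0.17 over all genes. KO_540G also had the widest spread over all probe sets, with an interquartile range of log2 ratios of 0.414, against 0.199 to 0.278 in the other 3 KO. Its part in the list's spread was not tested, but with KO_540G left out the median log2 fold change was -0.24 and 33 genes had negative values.

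**Figure D1:**
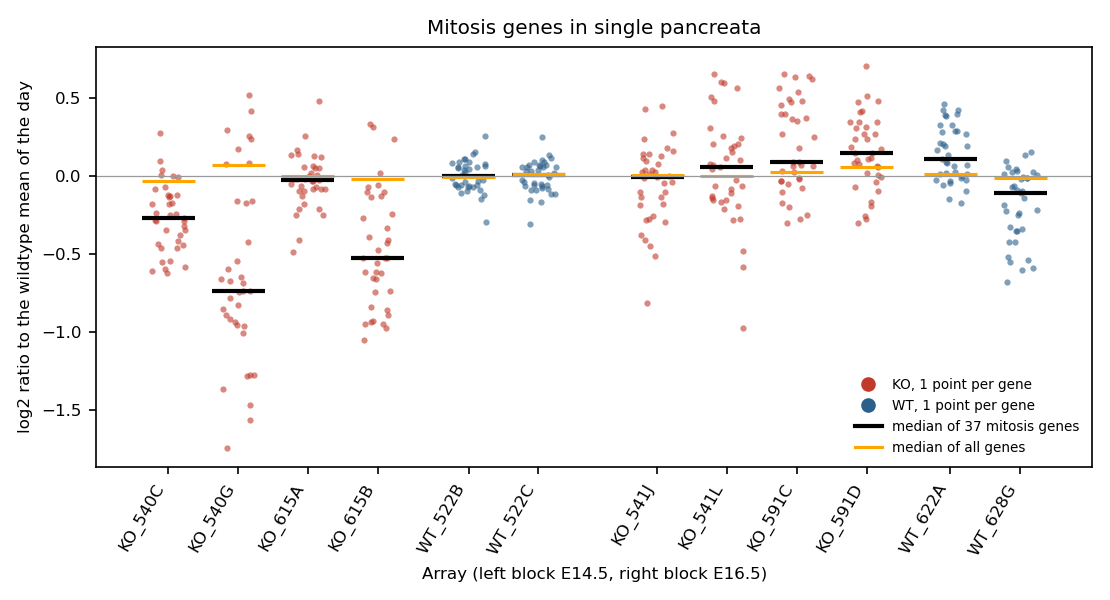
Log2 ratio to the WT mean of the day (y axis) of each of the 37 mitosis genes in each pancreas (x axis, E14.5 left and E16.5 right). Points are genes, black bars the median of the 37 genes and orange bars the median of all genes; at E14.5 the black bar lies at -0.73 in KO_540G and at -0.02 in KO_615A, while the orange bars stay near 0.

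At E16.5 the list lay near the WT level, slightly above it. The median log2 fold change was 0.11, against 0.03 over all genes, with 22 genes positive and 15 negative. The negative share of 40.5% was close to that of all genes (42.5%). The quartiles were -0.06 and 0.24, and the ends -0.44 for Ube2c and 0.56 for Cdk1. No member probe set was called, where 2.62% of all probe sets were, and the smallest adjusted p was 0.0758 (limma). At an unadjusted limma p under 0.05, 8 of 84 (9.52%) were higher, against 8.48% of all probe sets, and 0 were lower, against 8.16%. The share of higher members was close to the background. All 4 KO lay above both WT on 18 member probe sets (21.4%, against 14.5%) and below both on 1 (1.19%, against 11.1%). The median ratio was 0.996 in KO_541J, 1.04 in KO_541L, 1.06 in KO_591C and 1.10 in KO_591D, against 1.08 in WT_622A and 0.925 in WT_628G. KO_591D lay just above both WT medians and the other 3 KO between them, and the KO pancreata were much closer to each other than at E14.5, with a median SD of 0.15 in the list and 0.14 over all genes.

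The sign of the list's median at E16.5 depended on the WT pancreas it was set against. WT_622A lay above WT_628G on 27 of the 37 mitosis genes, against 54.5% of all genes, with a median log2 difference of 0.22. With WT_628G left out, the median log2 fold change of the list was -0.04, with 19 genes negative and 18 positive. With WT_622A left out it was 0.30, with 7 negative and 30 positive. At E14.5 the 2 WT pancreata lay on either side of each other evenly, WT_522B being above WT_522C on 18 of 37 genes. Those 2 carry the same number, whereas WT_622A and WT_628G do not. No number holds both KO and WT pancreata, so genotype cannot be told apart from whatever the number marks. Set against WT_522B alone the list's median was -0.40 and against WT_522C alone -0.35, with 32 genes negative against either.

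The KO effect at E16.5 minus that at E14.5 was tested directly. Its median over the 37 genes was 0.45, against 0.03 over all genes, and it was positive for 32 genes and negative for 5. No member was called, where 0.349% of all probe sets were, and the smallest adjusted p was 0.104 (limma). At an unadjusted limma p under 0.05 the difference was positive on 24 of 84 member probe sets (28.6%, against 5.32% of all probe sets), for 11 of 37 genes by their chosen probe set. The median was 0.25 without WT_628G, with 25 genes positive and 12 negative, and 0.79 without WT_622A. Without KO_615A the count of 24 became 41 (48.8%, against 10.6% of all probe sets in either direction). After quantile normalization it was 16 (19%, against 4.32%). Negative at E14.5 and positive at E16.5 were 19 genes, while 11 genes were negative at both days.

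**Figure D2:**
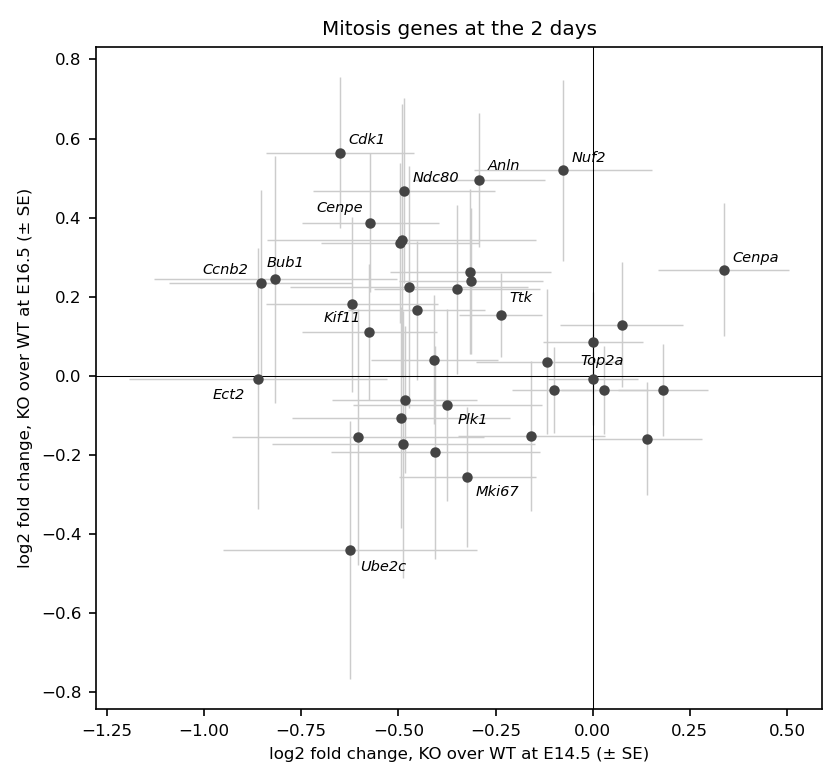
Log2 fold change of KO over WT at E14.5 (x axis) and E16.5 (y axis) for the 37 mitosis genes, with standard errors from limma as grey lines. Most points lie left of the vertical zero line; Cdk1 lies at -0.65 and 0.56, Ube2c at -0.62 and -0.44, and Cenpa at 0.34 and 0.27.

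Cdk1, the kinase that drives entry into mitosis, was among the members with the widest gap between days. At E14.5 its ratio was 0.839, 0.539, 0.712 and 0.508 in KO_540C, KO_540G, KO_615A and KO_615B, against 0.938 and 1.06 in WT_522B and WT_522C, an order of pancreata kept for every E14.5 value below. All 4 KO were below both WT, with a mean of 0.649 ± 0.155 (SD, n = 4) and a log2 fold change of -0.65 ± 0.19 (SE, limma adjusted p = 0.555). At E16.5 it was 1.21, 1.57, 1.55 and 1.63 in KO_541J, KO_541L, KO_591C and KO_591D, against 0.982 and 1.02 in WT_622A and WT_628G, an order likewise kept below. Here all 4 KO were above both WT, KO_541J least, with a mean of 1.49 ± 0.190 and a log2 fold change of 0.56 ± 0.19 (limma adjusted p = 0.151). The difference between the days was 1.21 ± 0.27 (limma adjusted p = 0.104). Of the alternatives run, only the one without KO_540C put Cdk1 past the test of the difference (limma adjusted p = 0.0483).

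Cyclin B2, the Cdk1 partner encoded by Ccnb2, had ratios of 0.661, 0.362, 0.753 and 0.517 in the E14.5 KO, against 1.04 and 0.959 in WT. KO and WT did not overlap, and the log2 fold change was -0.85 ± 0.24 (limma adjusted p = 0.522). In the E16.5 KO it was at 1.07, 1.15, 1.27 and 1.18, against 1.14 and 0.857 in WT, where the groups overlapped (log2 fold change 0.24 ± 0.24, limma adjusted p = 0.713). Ccna2, which encodes cyclin A2 of S phase and G2, was at -0.48 and -0.06 on the log2 scale at the earlier and the later day. Foxm1, a transcription factor that turns on many G2/M genes, had no such shift: its ratio was 0.944, 1.19, 1.04 and 0.931 in the E14.5 KO, against 1.03 and 0.969 in WT, and 0.973, 0.913, 1.05 and 0.974 in the E16.5 KO, against 1.01 and 0.989 in WT. The 4 Foxm1 probe sets had log2 fold changes of 0.03 to 0.10 at E14.5 and -0.04 to 0.04 at E16.5. Which probe sets are dim cannot be read from ratios.

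All 7 mitotic kinase genes had negative values at E14.5 (median log2 fold change -0.37), and 5 of 7 positive values at E16.5 (median 0.15). Ttk, the kinase that starts the spindle checkpoint, had the smallest p of any member at E14.5 on one of its probe sets (1449171_at). That probe set read 0.669, 0.437, 0.755 and 0.548 in KO, against 1.08 and 0.919 in WT, with no overlap and a log2 fold change of -0.76 ± 0.21 (limma adjusted p = 0.522). In the E16.5 KO it read 0.890, 0.977, 1.09 and 1.01, all between the WT values of 1.19 and 0.812. On the probe set chosen by name Ttk had log2 values of -0.24 (E14.5) and 0.15 (E16.5). Plk1, which acts from mitotic entry to cytokinesis, was at 0.786, 0.661, 0.978 and 0.695 in the E14.5 KO, against 0.952 and 1.05 in WT, KO_615A reaching into the WT range (log2 fold change -0.37 ± 0.24, limma adjusted p = 0.846). At E16.5 it was at 0.769, 0.823, 0.975 and 1.04 in KO, all within the wide gap between the WT values of 1.34 and 0.664, so that its log2 fold change was -0.58 without WT_628G and 0.43 without WT_622A.

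Bub1 and Bub1b, the checkpoint kinase and the BubR1 protein that hold anaphase until every chromosome is attached, stood at log2 fold changes of -0.82 and -0.50 on the earlier day, and 0.24 and 0.34 on the later. Bub1 was at 0.338 in KO_540G and at 0.863 in KO_615A, which is the order of the list as a whole. Aurora A, encoded by Aurka and acting at the spindle poles, was at -0.31 and 0.24 on its chosen probe set, while another (1440129_at) read 1.0, 1.31, 1.04 and 1.11 in the E14.5 KO, against 1.02 and 0.981 in WT. On that second probe set the E16.5 KO read 1.16, 1.09, 0.989 and 1.41, against 0.958 and 1.04 in WT, overlapping at both days. Aurora B (Aurkb), the kinase of the chromosomal passenger complex, was at -0.49 and -0.17, and Nek2, a kinase of centrosome separation, at -0.12 and 0.04. A further Nek2 probe set (1437580_s_at) stood at 0.542, 0.392, 0.967 and 0.484 in the E14.5 KO, against 1.12 and 0.879 in WT, KO_615A alone lying in the WT range. With KO_615A left out that probe set passed at E14.5 (log2 fold change -1.08, limma adjusted p = 0.0497) and for the difference between days (1.24, limma adjusted p = 0.0493).

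Of the 5 genes of the checkpoint and of mitotic proteolysis, 4 had negative values at E14.5 (median -0.49), and the median at E16.5 was -0.04. Ube2c, the ubiquitin-conjugating enzyme of the anaphase-promoting complex, was at 0.655, 0.523, 0.936 and 0.552 in the E14.5 KO, against 0.989 and 1.01 in WT. All 4 KO were below both WT, KO_615A by little (log2 fold change -0.62 ± 0.33, limma adjusted p = 0.774). At E16.5 it had the most negative value of the list, with 0.569, 0.509, 0.842 and 0.890 in KO, against 1.38 and 0.623 in WT (log2 fold change -0.44 ± 0.33, limma adjusted p = 0.581). The 2 WT pancreata enclosed KO_591C and KO_591D, so the groups overlapped, and the log2 fold change was 0.13 without WT_622A and -1.01 without WT_628G. Cdc20, the activator of that complex, was at -0.49 and -0.11, and Mad2l1, the checkpoint protein that restrains Cdc20, at -0.62 and 0.18. Cdca3, a G2/M gene tied to proteolysis of the mitotic entry inhibitor Wee1, was at 0.00 and 0.08 on its chosen probe set. Its other probe sets were at -0.40 and -0.15 (1452040_a_at) and at 0.09 and -0.02 (1448001_x_at).

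Pttg1 encodes securin, which guards sister chromatid cohesion until anaphase. One of its probe sets (1438390_s_at) read 0.757, 0.863, 0.668 and 0.769 in the E14.5 KO, against 0.876 and 1.12 in WT, and 1.43, 1.37, 1.60 and 1.32 in the E16.5 KO, against 1.12 and 0.877 in WT. KO lay below both WT at the earlier day (log2 fold change -0.38 ± 0.14, limma adjusted p = 0.654) and above both at the later day (0.52 ± 0.14, limma adjusted p = 0.0832). Its difference between days was 0.91 ± 0.20 (limma adjusted p = 0.114), and it passed when the arrays were weighted by their quality (0.97, limma adjusted p = 0.0388). The probe set chosen for Pttg1 by name did not show this, with log2 fold changes of -0.10 and -0.04. A further Pttg1 probe set (1424105_a_at) was at -0.72 at E14.5, with all KO below both WT (limma adjusted p = 0.69). At E16.5 it was at 0.20, where the groups overlapped.

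In the chromosomal passenger complex, the centromere and the kinetochore, 6 of 7 genes had negative values at E14.5 (median -0.45) and 6 of 7 positive values at E16.5 (median 0.27). Cenpe, the kinetochore motor that brings chromosomes to the metaphase plate, was at 0.748, 0.513, 0.841 and 0.631 in the E14.5 KO, against 1.04 and 0.957 in WT, and at 1.13, 1.52, 1.37 and 1.24 in the E16.5 KO, against 1.01 and 0.992 in WT. On this probe set KO lay below both WT at E14.5 (log2 fold change -0.57) and above both at E16.5 (0.39), as Cdk1 did. On another Cenpe probe set (1439040_at) KO and WT overlapped at both days, with log2 fold changes of -0.79 and 0.14. Ndc80 and Nuf2, which form the microtubule-binding complex of the kinetochore, differed from each other at E14.5, at -0.49 and -0.08, and were at 0.47 and 0.52 at E16.5. Birc5 (survivin) and Cdca8 (borealin), both of the passenger complex, were at -0.45 and -0.60 on the earlier day and at 0.17 and -0.16 on the later, and Cenpf, of the outer kinetochore, was at -0.41 and 0.04.

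Cenpa, the histone H3 variant that marks centromeres, went with the probe set rather than with the list. Its chosen probe set read 1.03, 1.43, 1.39 and 1.24 in the E14.5 KO, against 0.974 and 1.03 in WT, the highest positive value of the list at that day (log2 fold change 0.34 ± 0.17, limma adjusted p = 0.756). In E16.5 pancreata that probe set read 1.12, 1.19, 1.56 and 1.01 in KO, against 0.991 and 1.01 in WT (0.27 ± 0.17, limma adjusted p = 0.490). Another (1450842_a_at) read 0.697, 0.453, 0.895 and 0.493 in the E14.5 KO, against 1.09 and 0.911 in WT, the order of pancreata seen in most members. One more probe set (1441864_x_at) overlapped between groups at E14.5, at 1.08, 1.10, 0.960 and 0.966 in KO, against 1.06 and 0.940 in WT, and at E16.5 read 0.737, 0.756, 0.781 and 1.07 in KO, against 1.03 and 0.974 in WT. There 3 KO lay below WT and KO_591D above (log2 fold change -0.28 ± 0.14, limma adjusted p = 0.381), and with KO_591D left out it passed as lower in KO (-0.40, limma adjusted p = 0.0444).

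The spindle motors and microtubule binders had a median of -0.31 at E14.5 (5 of 7 negative) and -0.04 at E16.5 (3 of 7 positive). Kif11, the motor that pushes the spindle poles apart, was at 0.738, 0.555, 0.884 and 0.560 in the E14.5 KO, against 1.04 and 0.955 in WT, without overlap (log2 fold change -0.57 ± 0.17, limma adjusted p = 0.560). In the E16.5 KO it was at 0.989, 1.13, 1.06 and 1.13, against 1.08 and 0.925 in WT (0.11 ± 0.17, limma adjusted p = 0.839). Nusap1, which bundles spindle microtubules, had the smallest p of any member at E16.5 on one probe set (1416310_at): 1.21, 1.33, 1.24 and 1.27 in KO, against 0.989 and 1.01 in WT. KO were tightly grouped and all above WT, at a mean of 1.26 ± 0.0507 (SD, n = 4), a log2 fold change of 0.33 ± 0.09 (limma adjusted p = 0.0758). At E14.5 this probe set read 0.936, 0.924, 1.01 and 0.863 in KO, against 0.976 and 1.02 in WT (-0.10 ± 0.09, limma adjusted p = 0.915). The Nusap1 probe set chosen by name was at -0.31 on the earlier day and 0.26 on the later.

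Kif2c, the motor that takes microtubules apart at the centromere, read 1.0, 1.18, 0.984 and 1.18 in the E14.5 KO, inside the WT values of 0.814 and 1.19. At E16.5 its 4 KO values of 0.912, 0.898, 0.827 and 0.950 were all below the WT values of 1.02 and 0.984 (log2 fold change -0.16 ± 0.14, limma adjusted p = 0.670), the only member probe set with that pattern. Its other 3 probe sets differed at E16.5: one (1437611_x_at) read 1.46, 1.20, 1.15 and 1.18 in KO, all above the WT values of 1.15 and 0.849 (KO_591C by little, log2 fold change 0.33), and the others had log2 fold changes of 0.20 and -0.12. Hmmr, a spindle assembly protein also known as a hyaluronan receptor, read 0.954, 1.23, 1.12 and 1.26 in the E14.5 KO on its chosen probe set, against 1.0 and 0.995 in WT, and 0.929, 0.954, 0.964 and 1.05 in the E16.5 KO, against 1.05 and 0.954 in WT. Its other 4 probe sets had negative log2 fold changes at E14.5, from -0.84 to -0.15. Tpx2, which activates Aurora A, was at -0.40 and -0.19, Prc1, which bundles the central spindle, at -0.35 and 0.22, and the chromokinesin Kif4 at -0.16 and -0.15.

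Cytokinesis genes held the most negative value of the list at E14.5 and one of the highest at E16.5, with medians of -0.47 (4 of 5 negative) and 0.22 (4 of 5 positive). Ect2, which activates RhoA at the cleavage furrow, was at 0.648, 0.299, 0.957 and 0.482 in the E14.5 KO, against 1.11 and 0.890 in WT, a log2 fold change of -0.86 ± 0.33 (limma adjusted p = 0.666). KO_615A lay in the WT range and KO_540G at less than any other pancreas. Anln, a furrow scaffold that binds actin, was at 0.882, 0.597, 1.01 and 0.83 in the E14.5 KO, against 1.06 and 0.939 in WT (-0.29 ± 0.17, limma adjusted p = 0.812). In the E16.5 KO it was at 1.35, 1.51, 1.39 and 1.38, against 1.06 and 0.936 in WT, with all KO above WT (0.49 ± 0.17, limma adjusted p = 0.156). It passed at E16.5 with KO_540G, an E14.5 pancreas, left out, since all 4 groups share one variance (limma adjusted p = 0.0351). Racgap1 and Kif23, which form the centralspindlin complex, were at -0.47 and 0.07 on the earlier day and at 0.22 and 0.13 on the later, and the motor Kif20a at -0.49 and 0.34.

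Mki67, the Ki-67 protein that coats mitotic chromosomes and is the usual tissue marker of cycling cells, was at 0.818, 0.634, 1.04 and 0.741 in the E14.5 KO, against 1.10 and 0.897 in WT (log2 fold change -0.32 ± 0.18, limma adjusted p = 0.789). At E16.5 it was at 0.732, 0.942, 0.811 and 0.874 in KO, against 1.06 and 0.941 in WT, with KO_541L at the level of WT_628G and the other 3 below it (-0.26 ± 0.18, limma adjusted p = 0.544). Ki-67 thus lay on the lower side at both days, unlike Cdk1. Top2a, the topoisomerase that untangles sister chromatids, read 0.994, 1.06, 0.987 and 0.960 in the E14.5 KO, against 0.936 and 1.06 in WT, and 0.838, 1.03, 1.02 and 1.10 in the E16.5 KO, against 0.959 and 1.04 in WT. Both days overlapped. A further Top2a probe set (1454694_a_at) read 0.836, 0.590, 1.01 and 0.870 in the E14.5 KO, against 1.07 and 0.932 in WT, again lowest in KO_540G and highest in KO_615A.

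**Figure D3:**
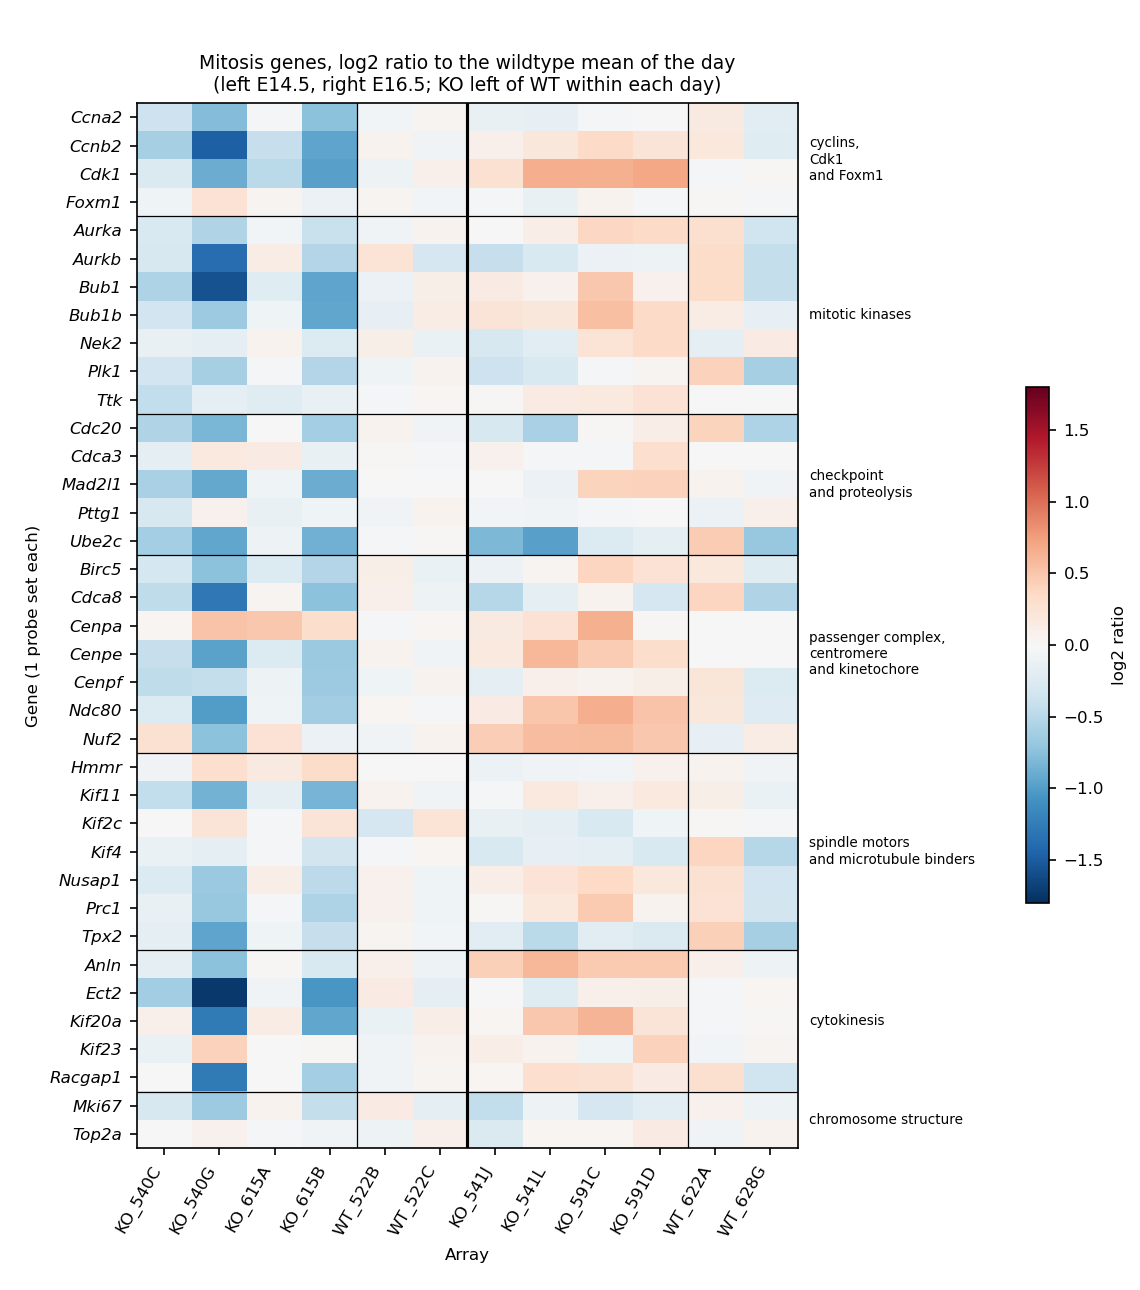
Log2 ratio to the WT mean of the day (colour, blue below and red above 0) for the 37 mitosis genes (rows, by role) in the 12 pancreata (columns, KO left of WT within each day). Blue is deepest in KO_540G and KO_615B and nearly missing in KO_615A. On the probe sets drawn, genes that do not share it include Foxm1, Top2a, Cenpa, Hmmr, Kif23, Kif2c, Cdca3 and Pttg1.

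**Figure D4:**
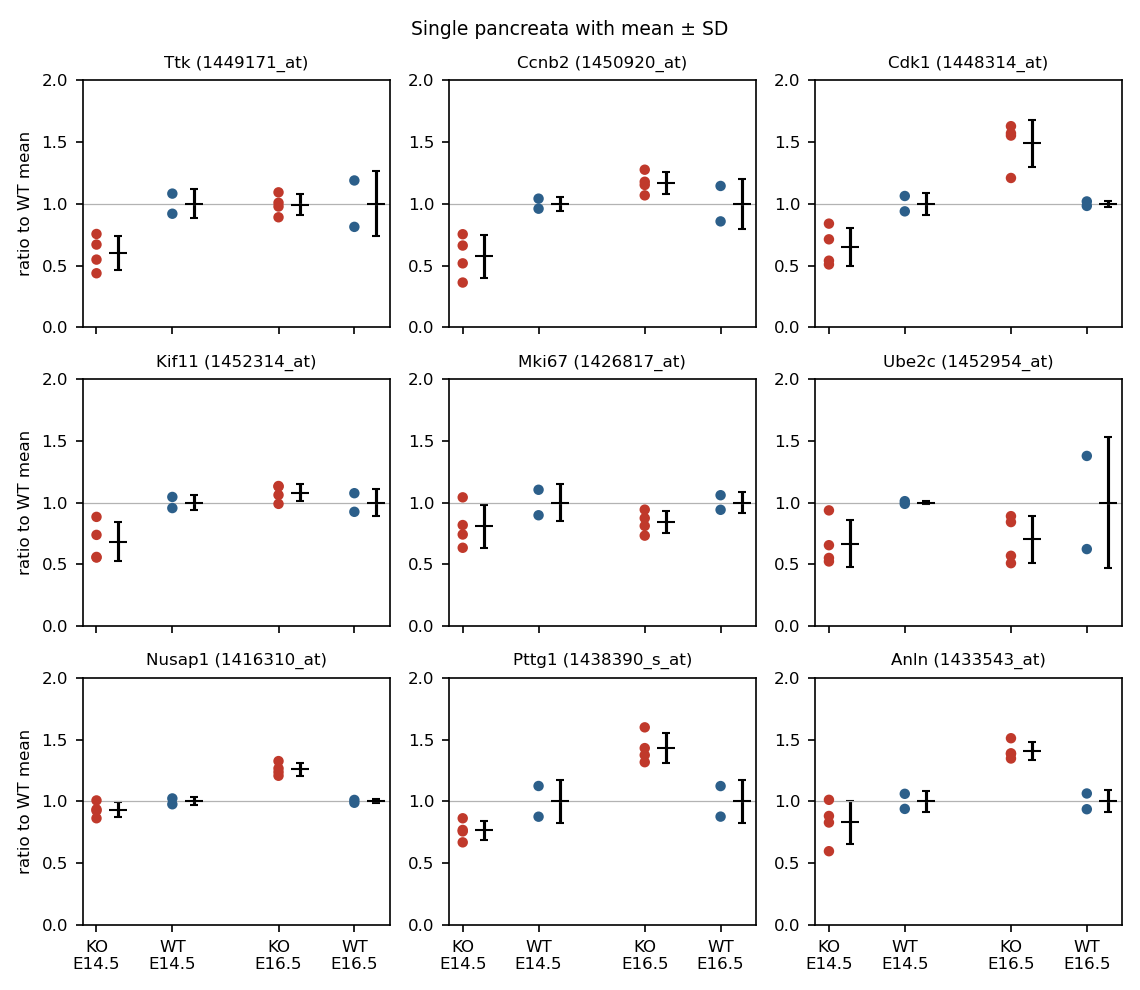
Ratio to the WT mean of the day (y axis) on 9 member probe sets, with 1 point per pancreas (red KO, blue WT) and the mean ± SD of each group beside it (n = 4 KO and 2 WT per day). Ttk, Ccnb2, Cdk1, Kif11, Ube2c and Pttg1 have no overlap at E14.5, and Cdk1, Nusap1, Pttg1 and Anln none at E16.5. The WT pair of Ube2c at E16.5 spans 0.623 to 1.38.

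Probe sets of a gene did not always go the same way. Of the 25 genes with several probe sets, 9 had both positive and negative log2 fold changes at E14.5. Signs differed within genes at E16.5 too, as for Cdca8 (-0.16 to 0.29) and Aurkb (-0.17 to 0.29). Kif23 ranged from -0.36 to 0.07 at E14.5 and from 0.03 to 0.41 at E16.5. Where in the transcript each probe set lies was not established, and the labels describe amplification from small amounts of RNA.

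Genes of the same processes outside the list gave similar medians. In 86 further mitosis genes the median log2 fold change was -0.27 at E14.5, with 68 negative. Of these, 31 were at an unadjusted limma p under 0.05, against 5.51% of all genes, and 0 were called, against 0.0165%. At E16.5 it was 0.11, with 59 positive (31.4% negative, against 42.5% of all genes). Called as higher was 1 gene, where 0.879% of all genes were called as higher and 2.15% as lower. That gene was Zwint, which encodes a kinetochore protein, at 2.70 ± 0.357 (SD, n = 4) in KO against WT values of 0.759 and 1.24, a log2 fold change of 1.47 ± 0.21 (limma adjusted p = 0.00607). In 50 genes of DNA replication and S phase the median was -0.38 at E14.5 (42 negative, 0 called, against 0.0165% of all genes). It was 0.12 at E16.5 (32 positive), where 36% were negative, against 42.5% of all genes. At E16.5, 3 of these 50 rose, against 0.879% of all genes: Pole2, a subunit of DNA polymerase epsilon, at 1.85 ± 0.181 in KO (limma adjusted p = 0.0383), and Cdc45 and Gins3, both parts of the replicative helicase, at 1.61 ± 0.138 and 1.41 ± 0.0453 (limma adjusted p = 0.0342 and 0.0322). These 3 and Zwint are no mitosis genes of the list. For each of them 4 of 4 KO lay above both WT, as for 15.1% of all genes. Each was named because it was called as higher, so this is no separate result.

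Markers of other cell types also differed between the pancreata. The 10 mesenchyme genes (collagens, Vim, Pdgfra and others) had a median log2 ratio of 0.46 in KO_540G, 0.39 in KO_615B, 0.27 in KO_540C and 0.13 in KO_615A, against 0.04 in WT_522B and -0.04 in WT_522C. At E14.5 the KO pancreas with the highest mesenchyme median thus had the lowest mitosis median and the reverse. At E16.5 this did not hold: KO_541L had the highest mesenchyme median (0.84) and KO_541J the lowest mitosis median (-0.006). The lowest mesenchyme median was in KO_591C (0.13) and the highest mitosis median in KO_591D (0.14). At E14.5, 9 of the 10 mesenchyme genes were positive and 0 called (0.0165% of all genes), and at E16.5, 8 of 10 with 2 called as higher (0.879% of all genes). The 11 endocrine genes had medians of 0.67, 0.48, 0.16 and 0.90 in the E14.5 KO, 10 of 11 being positive at either day. The 4 duct genes were at -0.32, -0.46, -0.14 and -0.30 in the E14.5 KO, against -0.003 and 0.001 in WT. The 10 acinar genes were at -0.23, -0.06, 0.41 and -0.93 in the E14.5 KO, and from -3.15 to -0.99 in the E16.5 KO, against -0.01 and 0.01 in WT, with 9 of 10 negative and 5 called as lower (2.15% of all genes). The mitosis genes were thus near the WT level at E16.5 in pancreata whose acinar markers were far below it. The part of these cell types in the values of the mitosis genes was not tested, and since the values are ratios, it cannot be read which markers are near background.

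**Figure D5:**
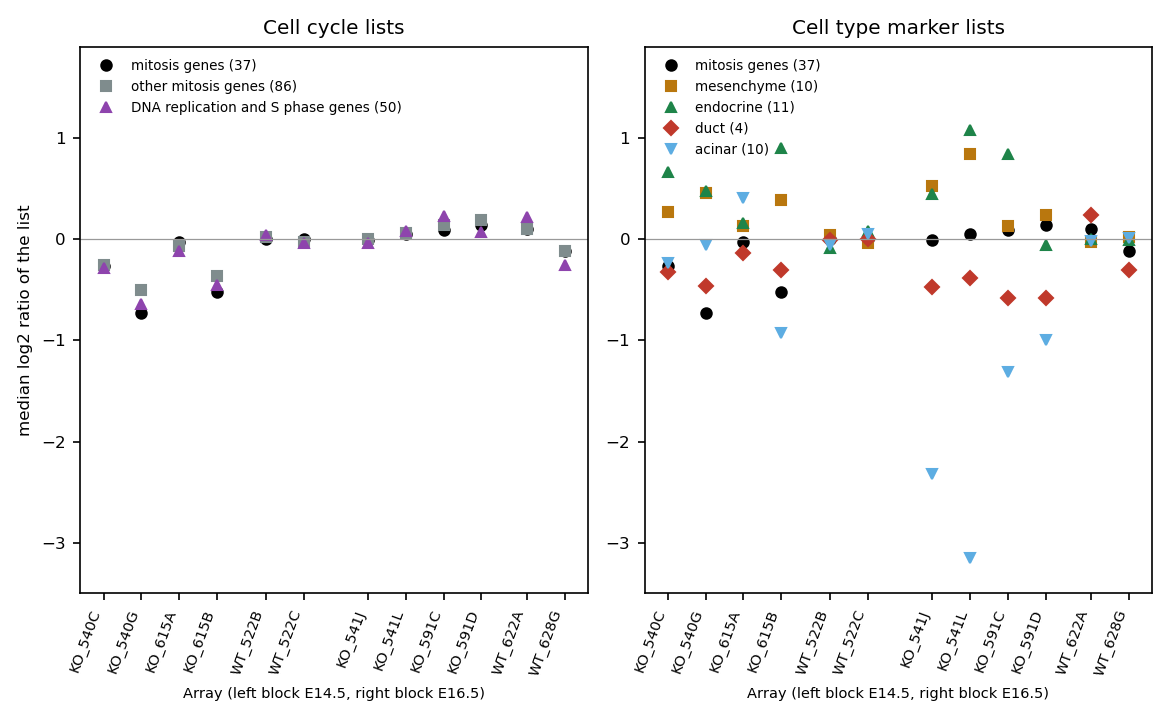
Median log2 ratio (y axis) of gene lists in the 12 pancreata (x axis, E14.5 left and E16.5 right), with the number of genes in brackets. Left, the mitosis genes with the further mitosis and DNA replication genes, whose medians lie lowest in KO_540G at E14.5; right, the mitosis genes with mesenchyme, endocrine, duct and acinar markers, where acinar medians at E16.5 reach -3.15 in KO_541L.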

How the data were processed

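Pancreata from 12 mouse embryos were profiled, each on its own Affymetrix MOE430 2.0 array. The authors amplified the RNA in a double round, computed probe set signals by RMA within GeneSpring, and deposited each value as a linear ratio to the mean of the 2 WT arrays of the same day. The 2 WT values of a day sum to 2 within 3e-07 on every probe set. Raw arrays were not used here. The ratios hold neither abundance nor the course between days, so no filter on low values could be run, and precision is limited by 2 WT animals per day.

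Of 45101 probe sets, 64 Affymetrix controls were set aside. Of the 45037 left, 34945 carry 1 gene symbol, 932 several and 9160 none. A limma model (limma 3.58.1, R 4.3.3) of the log2 ratios had 4 groups, 12 arrays and 8 residual degrees of freedom, and the 3 comparisons were KO against WT at E14.5, at E16.5, and the difference of the 2. The procedure was first tested on simulated data. The probe set of a gene was chosen by its name (_at, then _a_at, _f_at or _g_at, _s_at, _x_at, and the lowest number). Values in every array were given for the 4 member probe sets with the smallest p in each direction and day, and for Mki67, Top2a, Cdk1, Plk1 and Foxm1. Cenpe, Ect2 and further probe sets of Nek2, Cenpa, Kif2c and Top2a were added after their values were seen. The members and the lists were chosen with earlier results of these data known.

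The alternatives were trended and robust variances, each day fitted alone, quantile normalization, median centring, array weights, the number in the array name as a random block (statmod 1.5.0), a pseudocount of 0.1, no _x_at or _s_at probe sets, another probe set per gene, the methods' t-test and leaving out each array. Promoters and gene positions come from RefSeq tables (GRCm38.p6), which held 33 of the 38 promoters. Columns of the authors' own comparisons were not used. Figures were drawn with matplotlib 3.10.9.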

Additional observations from a re-analysis of the deposited data

Results flagged for a closer look

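On 2 of 36 groups of 4 KO values examined, 1 pancreas stood apart from the other 3 by Dixon's gap ratio (the gap to the nearest value over the whole range, on log2 ratios), where chance alone flags about 1.8. Cdk1 at E16.5 was at 1.21 in KO_541J, against 1.55 to 1.63 in the other KO, a gap ratio of 0.839 on the log2 scale. The Cenpa probe set 1441864_x_at at E16.5 was at 1.07 in KO_591D, against 0.737 to 0.781 in the other KO, a gap ratio of 0.843 on the log2 scale.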

How the results depend on the processing

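No member probe set was called at either day under trended and robust variances, each day fitted alone, quantile normalization, median centring, the random block (correlation -0.0876), the pseudocount, no _x_at or _s_at probe sets, or the methods' t-test after adjustment. Array weights gave 0 at either day and 1 for the difference (Pttg1). Leaving out 1 array gave 0 to 1 at E14.5 (Nek2 without KO_615A), 0 to 1 at E16.5 (Cenpa without KO_591D, Anln without KO_540G) and 0 to 1 for the difference (Cdk1 without KO_540C, Nek2 without KO_615A). Unadjusted, the methods' t-test gave 2 lower member probe sets at E14.5 (2.38%, against 5.04% of all probe sets in either direction) and 9 higher at E16.5 (10.7%, against 12.3%). Limma's 28 lower member probe sets at E14.5 became 37 without KO_615A (44%, against 9.85% of all in either direction). Without KO_540G they became 19 (22.6%, against 5.7%). The list's median at E14.5 was -0.51 to -0.24 over all alternatives. At E16.5 it was -0.0382 (without WT_628G) to 0.298 (without WT_622A), and 0.0354 without KO_591D. No paired analysis was possible because the groups share no replicate numbers.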
